A study of Mus musculus with 2 samples.

Results

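The genes described here encode enzymes, exporters and receptors of sphingolipid metabolism: 39 mouse genes for the synthesis and breakdown of ceramide and sphingomyelin and for the formation, removal, export and sensing of sphingosine 1-phosphate. The 39 are a chosen list, and other sphingolipid genes on the array are given further below. A listed gene was kept if the platform annotation assigned at least 1 probe set to its symbol alone. All 39 had one, out of 18193 genes named on the array, with 89 probe sets in total. The genes were selected on the biology of the pathway with the signal ratios of these same arrays already known, among them the low signals of Smpd3 and Sgms2 with PC-3 medium. Their differences are therefore given as a description and carry no test.

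Sphingolipids are built on a long-chain base. Ceramide is made from serine and a fatty acid at the endoplasmic reticulum, and it can be turned into sphingomyelin, into glycosphingolipids or into ceramide phosphate. Sphingomyelinases return sphingomyelin to ceramide and release phosphocholine, ceramidases free sphingosine, and sphingosine kinases make sphingosine 1-phosphate, which is exported, signals through its own receptors, or is degraded by a lyase. In bone, the neutral sphingomyelinase gene Smpd3 is known from the mouse fragilitas ossium mutation, which impairs mineralisation, and human SGMS2, a sphingomyelin synthase gene, from an inherited form of osteoporosis.

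The study asked which osteoblast transcripts respond to factors from different prostate cancer cell lines. The groups were primary mouse osteoblasts held in conditioned medium of PC-3 cells (1 array) and the same cell type held in conditioned medium of MDA-PCa2b cells (1 array). PC-3 and MDA-PCa2b are established human prostate cancer lines. In both groups the cells had been differentiated for 10 days in alpha-MEM to which 10% fetal calf serum had been added, together with beta-glycerophosphate at 10 mM and ascorbic acid at 50 µg/ml, then starved of serum overnight and treated for 6 hours. The labels give neither strain, age nor the number of animals behind the cells, and osteoblasts without tumour-cell medium were not analysed here. With 1 array in each group there is no replicate check, and "higher" and "lower" say how cells in PC-3 medium compared with cells in MDA-PCa2b medium on these arrays.

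Values are MAS5 signals, a linear measure of the brightness of a probe set, whose trimmed mean (2% removed at either end) came to 299.9 on both arrays, so both carried the same global scale. Signals at or below the median of their array (57.7 with PC-3 medium and 56.7 with MDA-PCa2b medium) were set to that floor, and a log2 ratio above 0 means a brighter signal in PC-3 medium than in MDA-PCa2b medium. The brightest probe set stood for its gene. Signals of different probe sets are not comparable as levels, so genes are compared by ratio only. Probe sets of the same gene scattered around their gene's mean log2 ratio with an SD of 0.24 over 4921 genes and 0.26 over the 22 sphingolipid genes with several probe sets above the floor on both arrays. This SD describes measurement scatter on these arrays, since cultures were not repeated. The 3'/5' signal ratio of the beta-actin control was 1.504 with PC-3 medium and 1.399 with MDA-PCa2b medium.

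The cells carried osteoblast transcripts on both arrays. Of 13 listed osteoblast markers 10 had a named probe set (not Runx2, Bglap and Spp1), and all 10 were above the floor in each. All 10 had log2 ratios below 0 by their brightest probe sets, with a median of -0.23. The median of all genes was also below 0, at -0.04. Ifitm5 (6.00-fold lower) and Dmp1 (4.14-fold lower), genes of mature osteoblasts and osteocytes, had the largest ratios, followed by Sp7 (-0.68), Alpl (-0.41) and Pth1r (-0.35), while Col1a1, Col1a2 and Sparc (lowest -0.02) were not below the median of all genes, -0.04. None of 7 endothelial markers and none of 5 blood cell markers exceeded the floor on either array. Macrophage and osteoclast markers were present, and 8 of 10 were above the floor on each array. Their log2 ratios had a median of 0.05, with 5 above 0 and 3 below. The largest were those of Cd68 (0.59) and Acp5 (0.45), while Ptprc (-0.23), Csf1r (-0.19) and Ctsk (-0.02) were below 0. Among osteoclast markers in that list, Ctsk (7336 with PC-3 medium and 7420 with MDA-PCa2b medium) and Acp5 (306 with PC-3 medium and 225 with MDA-PCa2b medium) were above the floor, and Calcr and Oscar were below it on both arrays. Of 4 adipocyte markers 2 exceeded the floor in PC-3 medium and 3 in MDA-PCa2b medium. Fabp4 (log2 ratio 0.98) and Adipoq (0.47) had the largest ratios, and Pparg, below the floor with PC-3 medium, gave a bound of -0.07. The part of other cells, and of the osteoblast markers' shift, in the results below was not tested, and in such bulk RNA fewer cells of a type and less RNA per cell cannot be told apart.

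Of the 39 genes, 35 were above the floor on both arrays and 4 were below it on both: Sptlc3 (a serine palmitoyltransferase subunit), Degs2 (a ceramide desaturase and hydroxylase), Acer2 (an alkaline ceramidase) and Sgpp2 (a sphingosine 1-phosphate phosphatase). The highest of their signals was 46.8, that of Degs2 with PC-3 medium. Of the 35, 5 (14.3%) differed by at least 2-fold, 2 of them higher (5.71%) and 3 lower (8.57%). Among all 11335 genes above the floor on at least 1 array, 2.12% were higher and 1.85% lower by that margin; nothing is read from this comparison, since the genes were chosen with these ratios known. The median log2 ratio was 0.05 over the 35 genes and -0.04 over all genes. Smpd3, Sgms2 and Spns2, for a neutral sphingomyelinase, a sphingomyelin synthase and the sphingosine 1-phosphate exporter, were lower, and Sphk1 and Ugcg, for a sphingosine kinase and glucosylceramide synthase, were higher. At a threshold of 1.5-fold S1pr1 joined the higher genes and Sgms1 the lower ones, which made 3 higher and 4 lower, against 5.59% and 6.56% of all genes. The remaining 28 lay within 1.5-fold, with log2 ratios from -0.58 to 0.52.

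**Figure D1:**
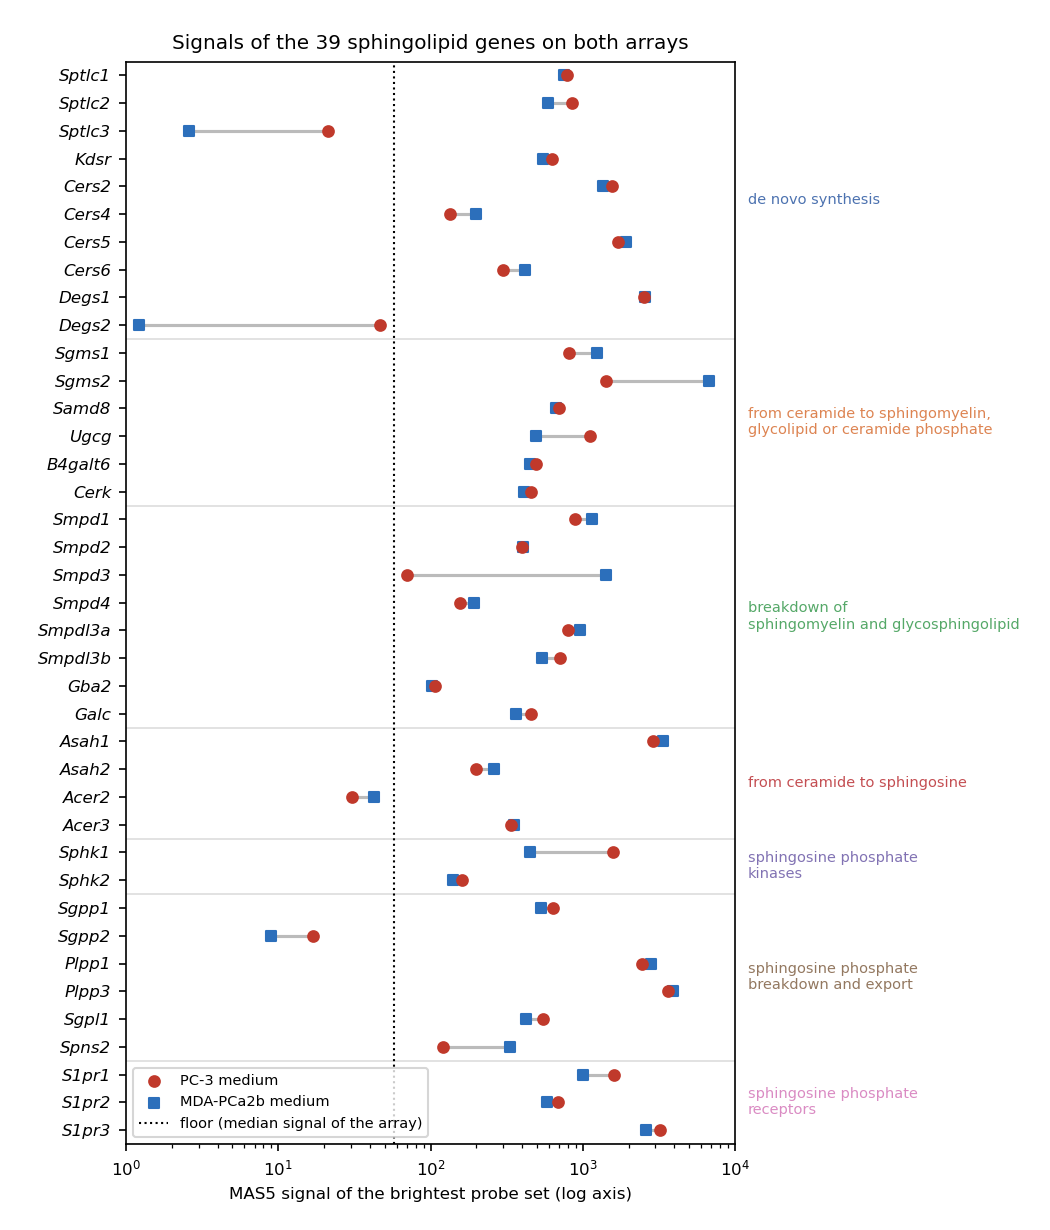
MAS5 signal of the brightest probe set of each of the 39 genes, on a log axis, with PC-3 medium (red circles) and MDA-PCa2b medium (blue squares), 1 array each; grey lines join the 2 arrays and the dotted line marks the floor. Most pairs of points nearly coincide, while Smpd3, Sgms2 and Spns2 lie further left with PC-3 medium and Sphk1 and Ugcg further right; Sptlc3, Degs2, Acer2 and Sgpp2 are left of the floor.

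The step from sphingomyelin to ceramide held the largest ratio among the 35 genes. Smpd3, which encodes a neutral sphingomyelinase at the inner face of the plasma membrane and the Golgi, gave a signal of 69.8 with PC-3 medium and 1432 with MDA-PCa2b medium, 20.5-fold lower (log2 ratio -4.36). Its signal with PC-3 medium was only just above the floor of 57.7. With the other probe sets Smpd3 was at the floor with PC-3 medium, so they give bounds. One Smpd3 probe set had 56.3 with PC-3 medium against 740 with MDA-PCa2b medium (at least 12.8-fold lower), and the third had 8.74 with PC-3 medium against 278 with MDA-PCa2b medium (at least 4.82-fold lower). All 3 Smpd3 probe sets were thus lower, and the size of the fold depends on the treatment of the weak signal with PC-3 medium: the Smpd3 log2 ratio was -2.25, a bound, when signals were floored at the 75th percentile of their array.

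The other sphingomyelinase genes differed far less. Smpd1, the lysosomal acid sphingomyelinase gene, had signals of 884 with PC-3 medium and 1154 with MDA-PCa2b medium (log2 ratio -0.38), but 0.10 by its second probe set. Smpd2, a further neutral sphingomyelinase gene, had 401 with PC-3 medium and 404 with MDA-PCa2b medium (-0.01). Smpd4, which encodes a neutral sphingomyelinase of endoplasmic reticulum and nuclear membranes, had 157 with PC-3 medium and 194 with MDA-PCa2b medium (-0.31). The weak other probe sets of Smpd4 gave 0.34 and -0.15, both bounds from a signal at the floor on 1 array, and -0.07. Of these sphingomyelinase genes Smpd3 alone was at least 1.5-fold different; the other 3 had log2 ratios of -0.38 to -0.01. The related genes Smpdl3a, whose product cleaves nucleotides, and Smpdl3b, whose product is anchored to the cell surface, had ratios of opposite sign (-0.27 and 0.40). Among glycosphingolipid-degrading enzymes, the non-lysosomal glucosylceramidase gene Gba2 gave 0.05 and the galactosylceramidase gene Galc 0.33, with 0.67 by its second probe set.

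Sphingomyelin synthesis, the reverse step, was represented by Sgms1 and Sgms2, and both were lower. Sgms2, whose product works mainly at the plasma membrane, had a signal of 1413 with PC-3 medium and 6781 with MDA-PCa2b medium, 4.80-fold lower, which ranked 11 from the lowest of 11335 genes. Its second probe set had 177 with PC-3 medium and 1301 with MDA-PCa2b medium, 7.37-fold lower. Both signals with PC-3 medium were well above the floor, so the Sgms2 ratio, unlike that of Smpd3, does not rest on a value near background. Sgms1, the Golgi enzyme that makes most sphingomyelin in many cells, had 816 with PC-3 medium and 1249 with MDA-PCa2b medium, 1.53-fold lower (1.44-fold by the mean over its probe sets), and its other probe sets above the floor gave log2 ratios of -0.50 and -0.47. Samd8, which encodes a related enzyme that makes ceramide phosphoethanolamine, had 694 with PC-3 medium and 664 with MDA-PCa2b medium (0.06).

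For the competing branch into glycosphingolipids the chosen list held Ugcg and B4galt6, and of these Ugcg alone was at least 2-fold higher. Among all genes 2.12% were higher by that margin, and nothing is read from a count in so short a list. Ugcg, which encodes glucosylceramide synthase, had signals of 1119 with PC-3 medium and 493 with MDA-PCa2b medium, 2.27-fold higher, at rank 179 from the highest. The other probe sets of Ugcg gave 578, 426 and 112 with PC-3 medium, against 224, 235 and 35.1 with MDA-PCa2b medium. In that order they were 2.58-fold, 1.81-fold and, as a bound, at least 1.97-fold higher. All 4 Ugcg probe sets were thus higher. B4galt6, whose product adds galactose to glucosylceramide, differed little (491 with PC-3 medium and 449 with MDA-PCa2b medium, log2 ratio 0.13; 0.01, 0.01 and 0.32 by its other probe sets). B4galt5, the gene of the other enzyme for this step, is outside the chosen list. It was 2.31-fold higher, with 516 in PC-3 medium and 224 in MDA-PCa2b medium. The ceramide kinase gene Cerk had 455 with PC-3 medium and 413 with MDA-PCa2b medium (0.14).

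**Figure D2:**
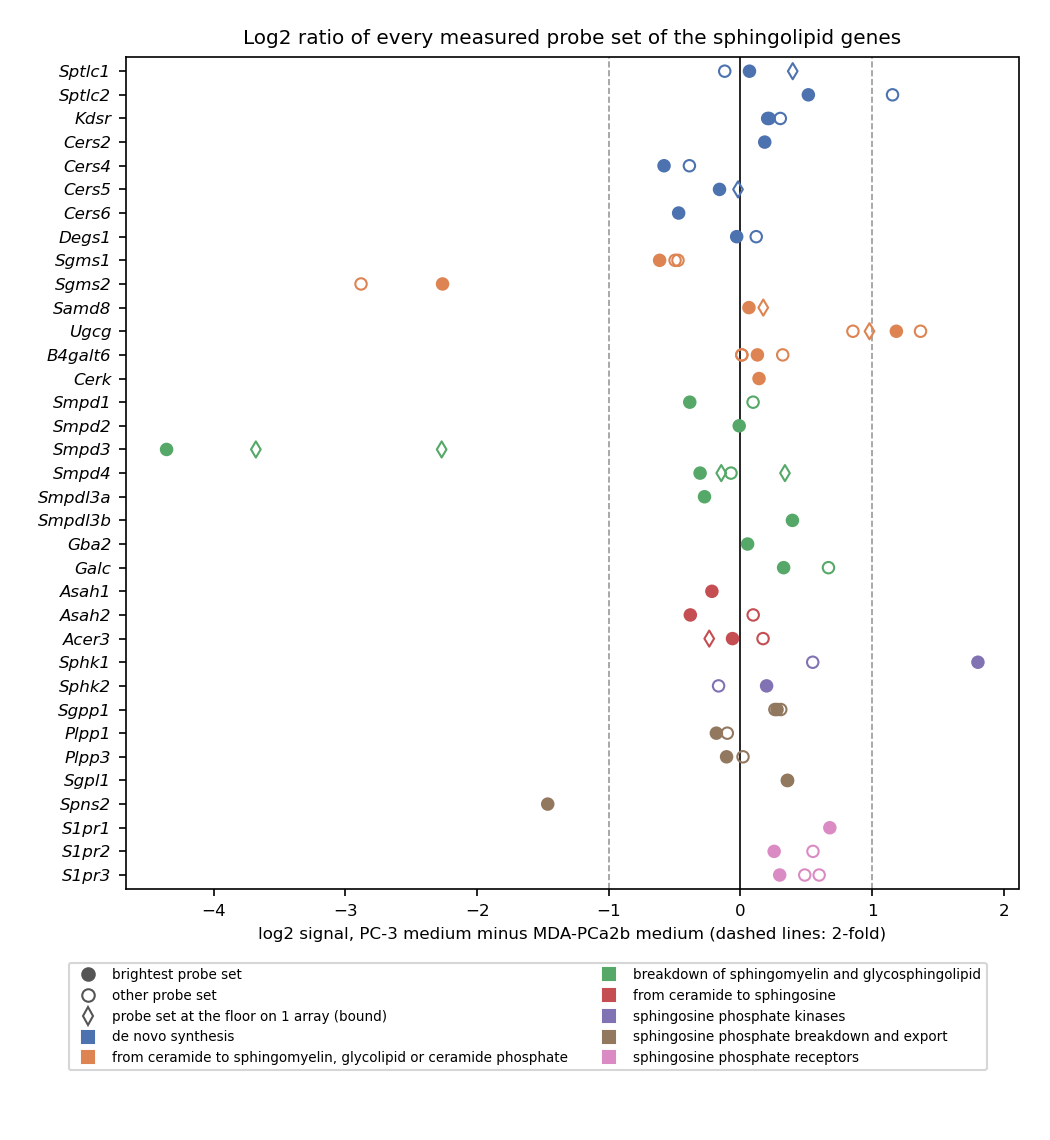
Log2 ratio (PC-3 medium minus MDA-PCa2b medium, 1 array each) of every measured probe set of the 35 genes above the floor, coloured by step of the pathway; filled circles are the brightest probe sets, open circles other probe sets and open diamonds bounds from probe sets at the floor on 1 array. The probe sets of Smpd3 (-4.36, -3.68, -2.27), Sgms2 (-2.26, -2.88) and Ugcg (0.85 to 1.37) fall on 1 side of 0, whereas those of Sphk1 are far apart (1.80 and 0.55).

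Genes of de novo ceramide synthesis showed no 2-fold difference by their brightest probe sets in the 8 of 10 that were measured. Among all genes only 2.12% were higher and 1.85% lower by that margin, so this count is not read as a trait of the step. The median log2 ratio of the 8 was 0.02. The subunit genes of serine palmitoyltransferase, the enzyme of the first step, were Sptlc1 with 784 in PC-3 medium and 747 in MDA-PCa2b medium (0.07) and Sptlc2 with 844 in PC-3 medium and 590 in MDA-PCa2b medium (0.52). The second probe set of Sptlc2 gave 1.16 on the log2 scale, from weaker signals of 235 with PC-3 medium and 106 with MDA-PCa2b medium. Kdsr, the gene of the reductase that follows, gave 0.21, with 0.22 and 0.30 by its other probe sets. Ceramide synthases differ in the fatty acid they attach, and their genes went different ways: Cers2, for very long chains, gave 0.18 and Cers5 -0.16, while Cers6 gave -0.47 (300 with PC-3 medium and 415 with MDA-PCa2b medium) and Cers4 -0.58 (134 with PC-3 medium and 201 with MDA-PCa2b medium), just inside the 1.5-fold limit, with -0.39 by its second probe set. Degs1, the desaturase gene of the last step, had 2524 with PC-3 medium and 2574 with MDA-PCa2b medium (-0.03).

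Ceramidase genes, whose products release sphingosine from ceramide, had small ratios below 0. Asah1, the lysosomal acid ceramidase gene, had 2886 with PC-3 medium and 3353 with MDA-PCa2b medium (-0.22), the neutral ceramidase gene Asah2 gave -0.38 and the alkaline ceramidase gene Acer3 -0.06. The second probe sets of Asah2 (0.10) and Acer3 (0.17) were on the other side of 0.

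Sphk1, which encodes the cytosolic sphingosine kinase, had signals of 1575 with PC-3 medium and 451 with MDA-PCa2b medium, 3.49-fold higher, at rank 65 from the highest of 11335 genes. Its second probe set had 250 with PC-3 medium and 171 with MDA-PCa2b medium, only 1.46-fold higher. Both Sphk1 probe sets were higher, but the second stayed below 2-fold. Sphk2, the gene of the other sphingosine kinase, had 161 with PC-3 medium and 140 with MDA-PCa2b medium (0.20), and -0.17 by its second probe set.

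Spns2, which encodes the transporter that carries sphingosine 1-phosphate out of the cell, had a signal of 122 with PC-3 medium and 335 with MDA-PCa2b medium, 2.76-fold lower, at rank 65 from the lowest. It has a single probe set, so no second one bears on this ratio, and with the 75th percentile as the floor the Spns2 log2 ratio was a bound of -0.16. Sgpl1, the lyase gene that ends the pathway, was 1.28-fold higher by both of its probe sets, with 545 in PC-3 medium and 425 in MDA-PCa2b medium by the brighter one. Sgpp1, a phosphatase gene of the endoplasmic reticulum that returns sphingosine 1-phosphate to sphingosine, gave 0.28, 0.31 and 0.26 on the log2 scale by its probe sets. Plpp1 (-0.18) and Plpp3 (-0.11), whose products remove phosphate from sphingosine 1-phosphate and lysophosphatidic acid at the cell surface, had bright signals with little difference: 3649 with PC-3 medium and 3925 with MDA-PCa2b medium for Plpp3.

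The sphingosine 1-phosphate receptor genes S1pr1, S1pr2 and S1pr3 had ratios above 0 by each of their probe sets. The same sign in so few genes is given as a description only. S1pr4 and S1pr5, outside the 39, were below the floor on both arrays. S1pr1, whose product couples to Gi proteins and guides cell migration, had 1610 with PC-3 medium and 1006 with MDA-PCa2b medium, 1.60-fold higher by its single probe set. S1pr2 had 692 with PC-3 medium and 579 with MDA-PCa2b medium (0.26, second probe set 0.55), and S1pr3 had 3207 with PC-3 medium and 2608 with MDA-PCa2b medium (0.30, other probe sets 0.60 and 0.49). S1pr2 and S1pr3 remained below 1.5-fold by their brightest probe sets, with log2 ratios close to the probe set scatter SD of 0.26.

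**Figure D3:**
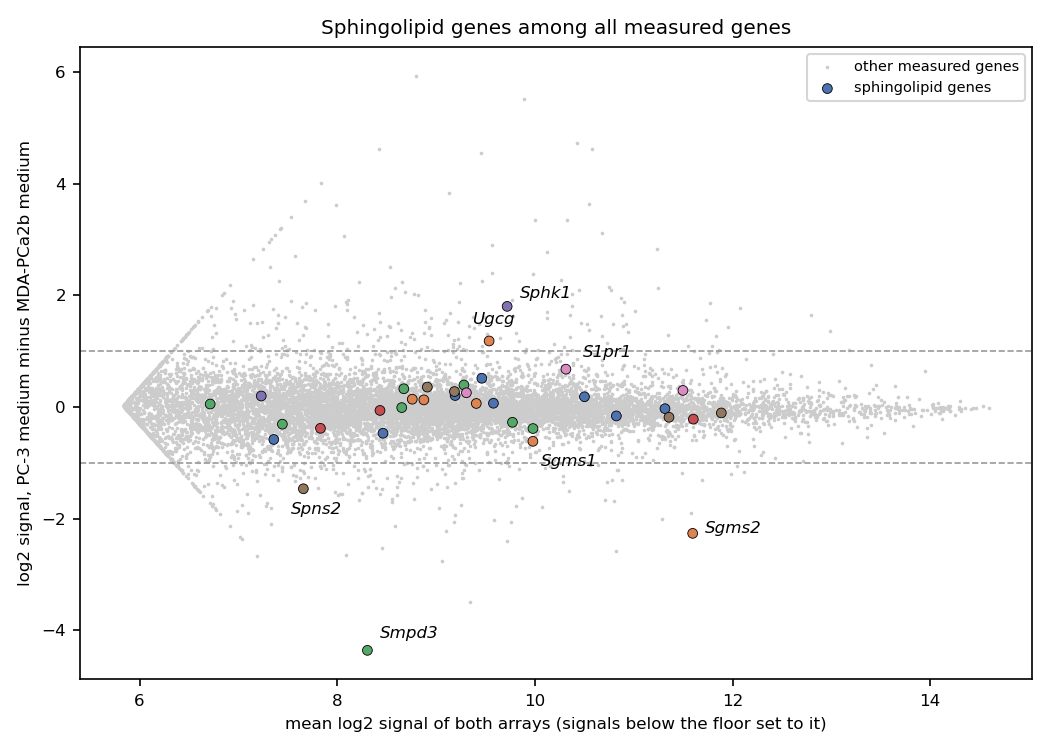
Log2 ratio (PC-3 medium minus MDA-PCa2b medium) against the mean log2 signal of both arrays for all measured genes (grey) and the 35 sphingolipid genes (large points, coloured by step of the pathway as in the plot of probe sets); dashed lines mark 2-fold. Most of the 35 lie in the grey band near 0, Smpd3 is the lowest point (-4.36), and Sgms2 lies at -2.26 in the right part of the plot, among bright genes.

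Probe sets of the same gene were compared by the sign of their ratio. Among the 22 genes with several probe sets above the floor on both arrays, all of the probe sets lay on the same side of 0 for 15 and on both sides for 7: Sptlc1, Degs1, Smpd1, Asah2, Acer3, Sphk2 and Plpp3. The brightest probe set of each of these 7 was within 1.5-fold. The share of such agreement over all genes was not computed. No gene at least 1.5-fold different had a probe set above the floor on both arrays that went the other way. This is no independent check: the genes were picked for large ratios, beside a probe set scatter SD of 0.24 on the same arrays. Smpd3, S1pr1 and Spns2 had only 1 such probe set, so for them there was nothing to compare.

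Genes outside the 39 were counted in the same way, beside the 2.12% higher and 1.85% lower by 2-fold among all genes. Nothing is read from the counts in such short lists. Of 41 listed sphingolipid genes 36 had a named probe set and 24 were measured, of which 1 was at least 2-fold higher and none lower, with a median log2 ratio of -0.06. The 1 was B4galt5, which encodes the other lactosylceramide synthase, with 516 in PC-3 medium and 224 in MDA-PCa2b medium (2.31-fold higher; its second probe set was below the floor on both arrays). Of 12 measured genes for phosphocholine handling and phosphate release none differed by 2-fold (median 0.13). The largest ratios in that list were those of Enpp6, which encodes a choline-specific phosphodiesterase (log2 ratio -0.93), and Alpl, the tissue-nonspecific alkaline phosphatase gene (-0.41). Among 7 measured genes of lysophosphatidic acid and related lysolipids (median 0.01), the receptor gene Lpar3 was at least 3.40-fold lower, from 24.6 with PC-3 medium against 196 with MDA-PCa2b medium. In the same list Pla1a, the gene of a phosphatidylserine-specific phospholipase, was at least 2.06-fold higher (117 with PC-3 medium and 38.0 with MDA-PCa2b medium).

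Promoter windows, 250 bases before and 50 bases after an annotated transcription start (RefSeq, GRCm38.p6), were held for 33 of the 39 genes, in 49 windows, and for 4 of the 5 genes at least 2-fold different (not Smpd3). They were searched on both strands for AP-1 (TGANTCA), NF-kB (GGGNNTTCC), STAT (TTCNNNGAA), Runx (TGTGGT), E-box (CACGTG) and GC box (GGGCGG) letters. The windows of the 4 genes are printed 5′ to 3′ on the gene's strand because these genes carry the 2-fold differences, with matches in capitals. For genes with several starts the window with the most kinds of match is shown, the most upstream among equals.
Sgms2 promoter: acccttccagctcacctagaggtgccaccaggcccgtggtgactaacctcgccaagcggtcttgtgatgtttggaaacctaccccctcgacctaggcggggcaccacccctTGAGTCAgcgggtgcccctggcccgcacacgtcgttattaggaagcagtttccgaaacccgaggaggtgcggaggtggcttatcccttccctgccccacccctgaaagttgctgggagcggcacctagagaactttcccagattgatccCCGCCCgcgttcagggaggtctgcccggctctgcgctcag
Spns2 promoter: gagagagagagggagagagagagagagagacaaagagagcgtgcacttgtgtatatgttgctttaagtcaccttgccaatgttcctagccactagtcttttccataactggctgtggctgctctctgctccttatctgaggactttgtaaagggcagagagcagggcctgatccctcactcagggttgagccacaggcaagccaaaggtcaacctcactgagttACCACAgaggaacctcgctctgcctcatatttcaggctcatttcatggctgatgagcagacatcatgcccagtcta
Ugcg promoter: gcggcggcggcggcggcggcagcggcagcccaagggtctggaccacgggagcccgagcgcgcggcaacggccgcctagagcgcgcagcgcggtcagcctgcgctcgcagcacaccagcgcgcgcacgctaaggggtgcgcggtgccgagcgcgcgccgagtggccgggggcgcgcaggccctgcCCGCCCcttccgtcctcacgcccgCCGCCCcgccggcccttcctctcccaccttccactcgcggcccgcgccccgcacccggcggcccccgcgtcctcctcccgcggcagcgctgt
Sphk1 promoter: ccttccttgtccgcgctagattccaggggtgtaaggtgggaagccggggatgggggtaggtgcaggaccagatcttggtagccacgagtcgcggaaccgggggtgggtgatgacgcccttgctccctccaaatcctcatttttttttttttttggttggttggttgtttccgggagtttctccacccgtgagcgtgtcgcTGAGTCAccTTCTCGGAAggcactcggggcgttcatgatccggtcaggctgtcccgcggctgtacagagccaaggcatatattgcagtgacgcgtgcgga

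The Sgms2 window (chr3:131490611-131490910, minus strand, 1 of 6 windows) held an AP-1 match whose first base lay at -139 from the start and a GC box at 11. The Spns2 window (chr11:72474978-72475277, minus strand) held a Runx match at -26. The Ugcg window (chr4:59189300-59189599, plus strand) held GC boxes at -66 and -42. The Sphk1 window (chr11:116531587-116531886, plus strand, 1 of 5 windows) held an AP-1 match at -50 and a STAT match at -41, which shared no base. A second Sphk1 window overlaps this one and holds the same letters. Of the other Sphk1 windows, not printed, the most upstream held an NF-kB match at -91, and the most downstream ones, which overlap, held E-box matches at -95 and -102. The unprinted Sgms2 windows held a Runx match at -120, an AP-1 match at -176, a STAT match at -72, an E-box at -117 and GC boxes. The most downstream Sgms2 window held no match. Among all 32851 windows of this length, 7.81% held the AP-1 letters, 8.30% the STAT, 16.8% the Runx, 7.15% the E-box, 35.7% the GC box and 5.82% the NF-kB letters. Of the 49 windows of sphingolipid genes, some of which overlap, 7 held AP-1, 6 STAT, 4 Runx, 9 E-box, 29 GC box and 5 NF-kB letters. A match describes the sequence and is not evidence of binding.

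**Figure D4:**
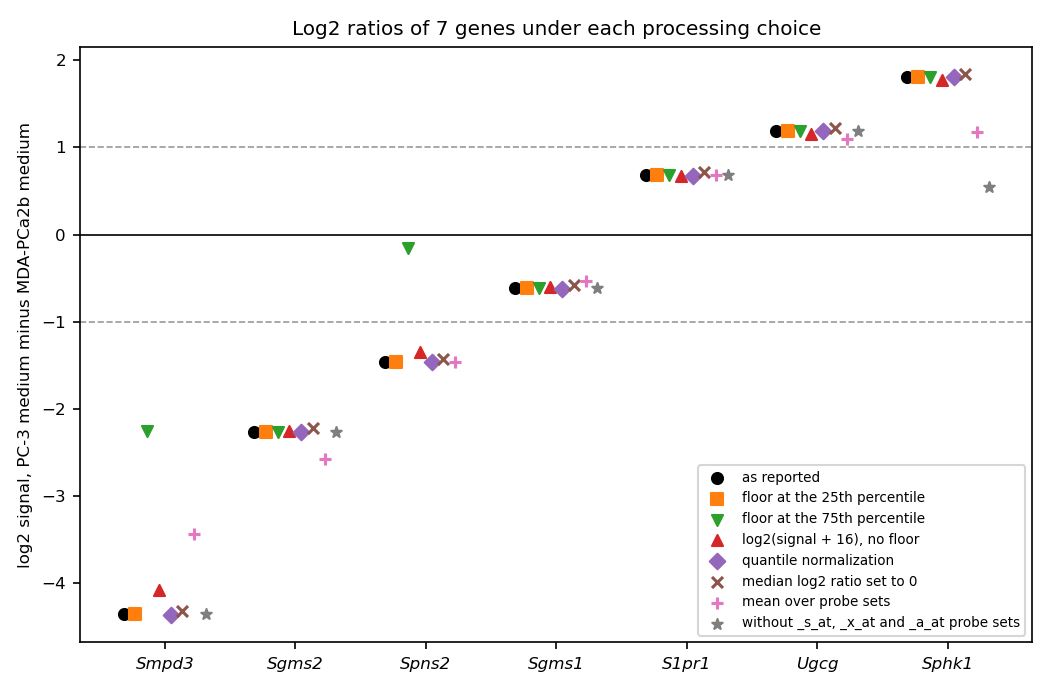
Log2 ratio (PC-3 medium minus MDA-PCa2b medium) of the 7 genes at least 1.5-fold different, as reported and under each of the 7 alternative ways of handling the signals; dashed lines mark 2-fold. All points of a gene lie on 1 side of 0, but Smpd3 moves to -2.25 and Spns2 to -0.16 once signals are floored at the 75th percentile, and Sphk1 to 0.55 without probe sets ending in _s_at, _x_at or _a_at.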

How the data were processed

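Total RNA (5 µg per culture) was labelled with biotin and hybridised to Affymetrix mouse arrays, 1 per group. The authors deposited 1 linear intensity per probe set and array; the submitters' processing notes name GCOS 1.4 and MAS5 as the software. Detection calls and background settings are not given in the sources used here. The 45101 probe sets included 64 controls. Genes were named from the platform annotation, without entries for several genes. Groups were taken from each sample's source description, since the title of the array for PC-3 medium also holds the prefix MDA.

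From the signals, the floor, log2 ratios and fold counts were computed as stated with the results (Python 3.11.15, pandas 2.3.3, NumPy 2.4.6), and the scripts were tested on simulated data. Genes at the floor on 1 array were counted with their bound. Precision is limited by the number of arrays: single arrays give neither an SD nor a test between the media. Genes at least 1.5-fold different were described in full; of the other gene lists, those at least 2-fold different were named, at most 4, or the 2 largest where none was. The 39 genes, the lists and the motifs were chosen with earlier results of these data known. Alternatives were a lower floor (25th percentile), a higher floor (75th percentile), no floor but log2(signal + 16), quantile normalization, a median log2 ratio of 0, the mean over probe sets, leaving out probe sets ending in _s_at, _x_at or _a_at, and thresholds of 1.5-fold and 3-fold.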

Additional observations from a re-analysis of the deposited data

How the results depend on the processing

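The 7 genes at least 1.5-fold different kept their direction under every alternative that gave a value, which is no independent check. The floors, log2(signal + 16), quantile normalization and the median set to 0 reuse the same signals, so ratios of that size could hardly change sign. S1pr1 and Spns2 have a single probe set, so choices between probe sets cannot bear on their direction. Sgms1 was no longer 1.5-fold lower in 2 of them: 1.49-fold with the median log2 ratio set to 0 and 1.44-fold with the mean over probe sets. Spns2 had no value without probe sets ending in _s_at, _x_at or _a_at, since its only one is of that kind. When signals were floored at the 75th percentile the log2 ratio of Smpd3 was -2.25 and that of Spns2 -0.16, both bounds set by the higher floor, so Spns2 was no longer 2-fold lower. Smpd3 was -4.08 with log2(signal + 16) and -3.44 with the mean over probe sets. For Smpd3 that mean takes in the bounds of its other probe sets, so it is itself a bound. The mean over probe sets also gave -2.57 for Sgms2 and 1.18 for Sphk1. Sphk1 was 0.55 without probe sets ending in _s_at, _x_at or _a_at, which leaves only its weaker one. The count of genes at least 2-fold higher was 4 with log2(signal + 16), where Degs2 and Sptlc3 were added from signals below the floor, and 1 without those probe sets (Ugcg) or at 3-fold (Sphk1). The count at least 2-fold lower was 2 or 3 under the alternatives at that threshold, 4 at 1.5-fold and 2 at 3-fold, with Smpd3 and Sgms2 in each. The median log2 ratio of the genes was 0.05 to 0.09. Counts of ratios above 0 shifted from 18 of 35 to 20 of 35 with the median log2 ratio set to 0. That step raises every ratio, because the median over all genes was -0.04. It therefore could not bring the receptor genes below 0 and is no check on their sign. Ratios of dim probe sets are limited by their signal over background. No paired analysis was possible because each group had 1 array.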
